A study of Mus musculus with 7 samples.

Results

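Transcripts of cholesterol and fatty acid synthesis were compared between myoblasts of wild type mice and of mice without Hmga2 (Hmga2 KO). The genes came from a list of 40, made up of 16 sterol synthesis enzymes, 5 regulators of the SREBP transcription factors, 6 genes of sterol transport and of the LXR receptors, and 13 enzymes that make, elongate or desaturate fatty acids. Each gene was represented by its brightest probe set, which gave values for 38 of the 40 among 18193 genes in all. Acat2 and Nr1h2 had no probe set in the annotation table used and were not analysed here.

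The samples were 7 Affymetrix mouse arrays of total RNA from untreated C57BL/6 myoblasts, the mononucleated precursors of skeletal muscle fibres. The 3 wild type samples (Hmga2 +/+) were all from females. The 4 Hmga2 KO samples (Hmga2 -/-) were from males in replicates 1 and 3 and from females in replicates 2 and 4, so that genotype and male sex can be told apart only through the 5 female samples. The labels name the samples biological replicates, but the sources used here give neither age, culture conditions nor pooling, so the p-values measure the spread between these samples. On the scale of log2(intensity + 1), Hmga2 itself averaged 13.49 (wild type) and 6.59 (Hmga2 KO). All 10 myoblast markers had means of at least 10.55, whereas no endothelial marker exceeded 6.88 and no leukocyte marker 7.43 in any sample. Other cell types were not absent by this measure. Markers of fibroblasts and fibro-adipogenic progenitors ranged from 5.32 to 13.19 and adipocyte markers from 5.56 to 10.58. Sarcomere genes of differentiating muscle ranged from 6.25 to 14.18. Every array had a median intensity of 150. Wild type replicate 2 stood apart in the Actb 3'/5' control probe ratio, at 1.94 against 1.61 to 1.74 elsewhere. It was also highest in the Gapdh 3'/5' ratio, at 1.52 against 1.22 to 1.36. Its limma array weight was the lowest, at 0.63 against 0.82 to 1.53.

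Sterols are built from acetyl-CoA through the mevalonate pathway, which ends in squalene, and squalene is then closed into lanosterol and trimmed to cholesterol. When membrane sterol is low, Scap escorts the SREBP proteins from the endoplasmic reticulum to the Golgi, where they are cut free to enter the nucleus and activate sterol and fatty acid genes, and when sterol is plentiful the Insig proteins hold Scap back. LXR receptors sense oxidised sterols and activate the efflux pumps Abca1 and Abcg1 as well as Srebf1 and Scd1. In muscle precursors these pathways supply the membrane lipids needed for growth and for fusion into fibres.

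SREBP proteins bind the sterol regulatory element together with the factor NF-Y, which binds the CCAAT box, and the promoters were therefore examined for what the genes share in sequence. RefSeq windows (GRCm38.p6) of 300 bases, 250 before and 50 from the annotated start, were found for 31 of the 40 genes, some with several starts, which gave 41 windows. No window was found for Fdps, Fdft1, Sqle, Stard4, Npc1, Abcg1, Scd1, Scd2 and Fads1. Windows were searched on both strands for the sterol regulatory element core TCACCCCAC, the same with 1 free base (TCACNCCAC), the NF-Y box CCAAT and the E-box CACGTG, which reads alike on both strands. CCAAT was found in 12 of 16 windows of sterol enzymes (75.0%) and in 24 of all 41 (58.5%), against 37.4% of 32851 RefSeq windows of this length. CACGTG was found in 8 of the 41 windows (19.5%, against 7.15%). TCACCCCAC was found in 1 window, that of Hmgcs1 (2.44% of the 41, against 0.551%), and TCACNCCAC in the same 1 window (against 1.24%). These are matches of letters, not sites of binding, and a window without a match says nothing about the factor. The promoters printed here are those of Hmgcs1, which holds the core, of Idi1, Cyp51 and Hsd17b7, sterol enzymes that stood highest in the male Hmga2 KO samples, and of Sc5d and Acss2, which separated the genotypes in opposite directions. The windows of Elovl6 and Fads2, which also stood highest in the male samples, hold none of these motifs and are not printed. Sqle, Fdps and Scd1 stood highest there too but had no window. The printed windows run 5′ to 3′ along the gene, with motifs on either strand in capitals.

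Hmgcs1, chr13:119690101-119690400, plus strand: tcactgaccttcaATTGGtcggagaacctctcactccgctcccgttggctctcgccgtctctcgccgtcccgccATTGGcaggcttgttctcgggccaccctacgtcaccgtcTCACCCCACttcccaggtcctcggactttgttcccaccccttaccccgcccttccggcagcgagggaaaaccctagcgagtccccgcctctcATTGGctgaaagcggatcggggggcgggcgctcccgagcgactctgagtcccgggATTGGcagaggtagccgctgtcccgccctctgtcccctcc
Idi1, chr13:8885356-8885655, plus strand: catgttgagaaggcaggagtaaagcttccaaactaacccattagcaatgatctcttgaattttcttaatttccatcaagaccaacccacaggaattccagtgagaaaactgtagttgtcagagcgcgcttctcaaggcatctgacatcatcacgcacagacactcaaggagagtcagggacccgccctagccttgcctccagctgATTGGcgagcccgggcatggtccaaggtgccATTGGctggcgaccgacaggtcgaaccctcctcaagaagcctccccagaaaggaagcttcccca
Cyp51, chr5:4104648-4104947, minus strand: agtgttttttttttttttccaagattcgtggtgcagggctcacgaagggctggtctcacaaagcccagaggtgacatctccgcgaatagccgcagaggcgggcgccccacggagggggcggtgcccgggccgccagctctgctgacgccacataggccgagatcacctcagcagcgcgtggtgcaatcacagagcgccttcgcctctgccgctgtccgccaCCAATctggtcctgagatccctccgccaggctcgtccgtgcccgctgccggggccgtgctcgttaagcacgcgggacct
Hsd17b7, chr1:169969156-169969455, minus strand: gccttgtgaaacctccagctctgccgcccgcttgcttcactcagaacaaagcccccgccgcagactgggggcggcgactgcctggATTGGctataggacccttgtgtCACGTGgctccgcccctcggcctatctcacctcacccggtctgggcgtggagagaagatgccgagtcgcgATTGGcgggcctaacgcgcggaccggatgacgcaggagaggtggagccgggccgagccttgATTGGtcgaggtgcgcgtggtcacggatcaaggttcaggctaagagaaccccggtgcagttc
Sc5d, chr9:42264251-42264550, minus strand: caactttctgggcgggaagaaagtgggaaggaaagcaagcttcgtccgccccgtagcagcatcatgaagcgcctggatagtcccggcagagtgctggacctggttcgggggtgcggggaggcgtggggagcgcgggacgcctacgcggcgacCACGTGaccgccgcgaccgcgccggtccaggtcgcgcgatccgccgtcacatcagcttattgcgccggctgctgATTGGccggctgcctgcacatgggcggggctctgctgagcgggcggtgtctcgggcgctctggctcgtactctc
Acss2, chr2:155517793-155518092, plus strand: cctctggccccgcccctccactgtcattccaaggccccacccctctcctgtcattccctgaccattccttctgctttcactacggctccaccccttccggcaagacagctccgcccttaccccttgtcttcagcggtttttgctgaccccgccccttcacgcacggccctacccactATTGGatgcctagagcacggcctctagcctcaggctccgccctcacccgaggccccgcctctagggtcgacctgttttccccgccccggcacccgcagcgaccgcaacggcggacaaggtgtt

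The Hmgcs1 core begins 137 bases before the annotated start, and the same window has 4 CCAAT boxes, all on the other strand and so printed as ATTGG, of which the nearest on either side of the core begin 176 and 45 bases before the start. Idi1 has CCAAT boxes at 45 and 14 bases, Cyp51 at 29, Sc5d at 24 and Acss2 at 73 bases before the start. Hsd17b7 has 3 CCAAT boxes, and Hsd17b7 and Sc5d each have an E-box, at 143 and 98 bases.

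No member of the list changed between the genotypes past an adjusted p of 0.05 (limma, Benjamini-Hochberg over all genes), where 5 of 18193 genes (0.0275%) did. Without adjustment, 5 of 38 members (13.2%) had a p under 0.05, against 13.3% of all genes. Of these, Sc5d and Scd1 were higher in Hmga2 KO (5.26%, against 2.99% of all genes) and Srebf1, Acaca and Acss2 were lower (7.89%, against 10.3%). The groups did not overlap for Sc5d and Scd1 in the higher direction (5.26%, against 2.37%) and for Acaca and Acss2 in the lower (5.26%, against 9.29%). These shares lie near those of all genes, so the list as a whole did not stand out by its count. Leaving out wild type replicate 1 gave 5 of 38 members lower in place of 3, where 13.7% of all genes were lower. Leaving out Hmga2 KO replicate 2 gave 4 of 38 higher in place of 2, where 3.55% of all genes were higher. Over all genes 544 were higher and 1879 lower without adjustment, and 805 and 1177 after quantile normalization of the arrays.

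**Figure D1:**
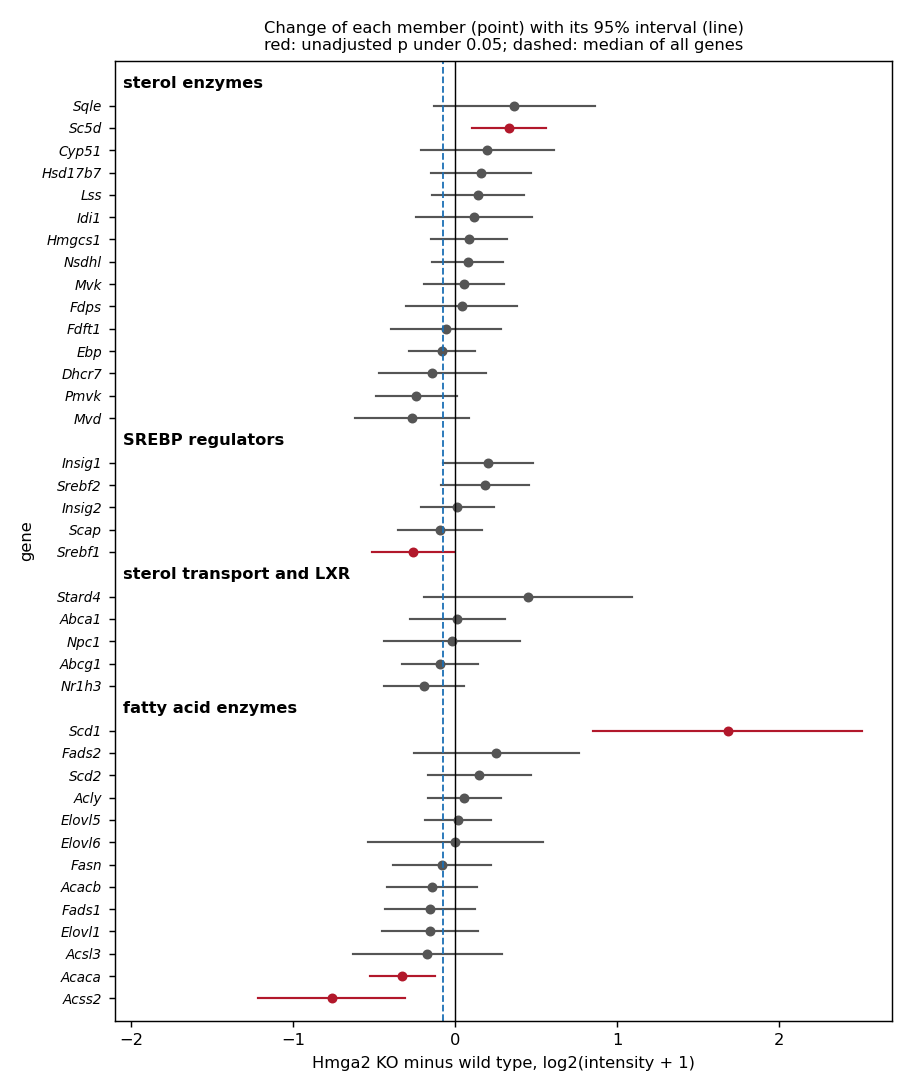
Difference between Hmga2 KO and wild type for each of the 38 measured genes, on the x axis as log2(intensity + 1), with points for the estimate and lines for its 95% interval from limma, grouped by role. Scd1 lies farthest to the right at 1.68 and Acss2 farthest to the left at -0.76, and the dashed line is the median of all genes at -0.07.

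Sterol synthesis enzymes had a median difference of 0.08 between Hmga2 KO and wild type, against -0.07 over all genes, and 11 of 15 lay above that median. In the 5 female samples alone the median was -0.02, against -0.05 for all genes, and over all samples but Hmga2 KO replicate 1 or 2 it was 0.036 or 0.12. Sc5d, the desaturase near the end of cholesterol synthesis, was the 1 sterol enzyme with an unadjusted p under 0.05. Its log2 values were 9.13, 8.93 and 8.96 in wild type replicates 1 to 3 and 9.39, 9.18, 9.44 and 9.36 in Hmga2 KO replicates 1 to 4. Every Hmga2 KO sample thus lay above every wild type sample, by a narrow margin in replicate 2. The means were 9.01 ± 0.11 (SD, n = 3) and 9.34 ± 0.11 (SD, n = 4), a difference of 0.33 (SE 0.10, 95% interval 0.11 to 0.56, adjusted p = 0.293, limma). By exact permutation over 35 splits, two-sided, p was 0.0571, where 0.0286 is the smallest these allow. In females alone the difference was 0.26. The other 2 probe sets of Sc5d differed by 0.16 and -0.02, both smaller than on the brightest.

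Early mevalonate enzymes showed no separation. Hmgcs1, which makes HMG-CoA and whose promoter carries the sterol element core, had 12.89, 12.95 and 12.92 in wild type and 13.15, 12.80, 13.03 and 13.05 in Hmga2 KO, so the wild type samples lay within the Hmga2 KO range. Pmvk, the phosphomevalonate kinase, had 8.36, 8.70 and 8.65 in wild type and 8.24, 8.45, 8.28 and 8.37 in Hmga2 KO. Mvd, the decarboxylase that makes isopentenyl diphosphate, had 8.01, 8.67 and 8.15 in wild type and 7.88, 8.07, 8.01 and 8.09 in Hmga2 KO. For Pmvk only wild type replicate 1 fell inside the Hmga2 KO values, and for Mvd wild type replicate 2, the sample apart in the Actb control, was the highest by far. Pmvk differed by -0.24 (95% interval -0.49 to 0.01, adjusted p = 0.395, limma) and Mvd by -0.27 (95% interval -0.62 to 0.09, adjusted p = 0.474). Without wild type replicate 2 the Mvd difference was -0.067, and without wild type replicate 1 it was -0.40. Mvk, mevalonate kinase, differed by 0.05 (95% interval -0.19 to 0.30), and its dimmer probe set by -0.11.

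Of the later enzymes, Nsdhl and Ebp, which act on sterol intermediates after lanosterol, differed by 0.08 (95% interval -0.14 to 0.30) and -0.08 (95% interval -0.28 to 0.13). Their groups overlapped. Fdft1, squalene synthase, differed by -0.06 (95% interval -0.40 to 0.29). Lss, which closes squalene epoxide into lanosterol, differed by 0.14 (95% interval -0.14 to 0.43), and its other probe sets by 0.05 and -0.02. Dhcr7, the last reductase of the pathway, had 11.71, 11.67 and 11.75 in wild type and 11.80, 11.18, 11.59 and 11.69 in Hmga2 KO, and differed by -0.14 (95% interval -0.47 to 0.19). Hmga2 KO replicate 2 was therefore the lowest sample for Dhcr7, and replicate 3 also lay below every wild type sample.

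Among the SREBP regulators, Srebf1, which encodes the factor tied mainly to fatty acid genes, lay lower in Hmga2 KO and Srebf2, tied mainly to sterol genes, lay higher. Srebf1 had 8.94, 9.20 and 9.05 in wild type and 8.61, 8.97, 8.85 and 8.80 in Hmga2 KO. Only Hmga2 KO replicate 2 reached above the lowest wild type sample. The means were 9.06 ± 0.13 (SD, n = 3) and 8.81 ± 0.15 (SD, n = 4), a difference of -0.26 (SE 0.11, 95% interval -0.51 to -0.0032, adjusted p = 0.374, limma). In females alone it was -0.18.

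Srebf2 had 12.01, 11.77 and 12.08 in wild type and 12.23, 11.92, 12.27 and 12.13 in Hmga2 KO, with both male samples on top. The difference was 0.19 (95% interval -0.09 to 0.46, adjusted p = 0.515, limma), 0.07 on its other probe set and 0.095 without wild type replicate 2. Insig1, itself an SREBP target and a brake on Scap when sterol is plentiful, had 13.10, 12.80 and 12.80 in wild type and 13.25, 12.88, 13.10 and 13.20 in Hmga2 KO, a difference of 0.21 (95% interval -0.07 to 0.48, adjusted p = 0.485). For both genes the ranges overlapped. Insig2, the other brake, differed by 0.01 on its brightest probe set and by -0.18 and -0.16 on the other 2, and Scap by -0.09, with groups that overlapped. The median over the 5 regulators was 0.01.

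Genes of sterol transport and LXR had a median difference of -0.02. Stard4, a carrier of cholesterol between membranes, varied most among them, with 10.23, 9.28 and 9.82 in wild type and 10.79, 9.62, 10.22 and 10.28 in Hmga2 KO. Its difference of 0.45 was smaller than the spread within either group (SD 0.48 in both, 95% interval -0.19 to 1.09, adjusted p = 0.505, limma). It was 0.20 without wild type replicate 2, 0.26 without Hmga2 KO replicate 1 and 0.68 without wild type replicate 1. Npc1, which exports cholesterol from lysosomes, differed by -0.02 (95% interval -0.44 to 0.40). The efflux pumps Abca1 and Abcg1 and the receptor Nr1h3 (LXR alpha) stood near background. Their intensities were 66.6 to 95.5, 62.5 to 78.3 and 56.1 to 77.9, below the array median of 150, where 9 probe sets of Y-linked genes gave 33.9 to 58.2 in the female samples. Nr1h3 had 6.04, 6.30 and 6.09 in wild type and 5.83, 5.86, 6.08 and 6.05 in Hmga2 KO (difference -0.19, adjusted p = 0.471, limma, and -0.11 without wild type replicate 2). Abcg1 had 6.19, 6.20 and 6.29 in wild type and 6.06, 6.31, 5.99 and 6.19 in Hmga2 KO (difference -0.09, adjusted p = 0.719, and -0.15 to -0.042 with 1 sample left out). At such dim probe sets a difference may be understated or may lie within background, and these groups overlapped.

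Fatty acid enzymes had a median difference of -0.08, close to that of all genes, but held both the highest and the lowest member of the whole list. Leaving out wild type replicate 1 gave a median of -0.17, and leaving out wild type replicate 3 gave -0.030. Scd1, the desaturase that turns saturated into monounsaturated fatty acids, had 10.43, 9.60 and 9.68 in wild type. In Hmga2 KO it had 12.13, 11.44, 12.15 and 10.63 in replicates 1 to 4. All 4 Hmga2 KO samples lay above all 3 wild type samples, although replicate 4 exceeded wild type replicate 1 by little. The means were 9.90 ± 0.46 (SD, n = 3) and 11.59 ± 0.72 (SD, n = 4). The difference of 1.68 (SE 0.37, 95% interval 0.86 to 2.51) is 3.21-fold and did not pass (adjusted p = 0.223, limma). By exact permutation, two-sided, p was 0.0571. In females alone the difference was 1.13 (adjusted p = 0.522), and on the other probe set of Scd1, which is near background, it was 0.41. Scd2, the desaturase paralog, showed no such separation on its brightest probe set. It had 12.97, 12.51 and 13.02 in wild type and 12.99, 12.88, 13.17 and 12.90 in Hmga2 KO (difference 0.15, 95% interval -0.17 to 0.47). On its other probe sets the difference was larger, at 0.36 and 0.33, with no unadjusted p under 0.05 (limma).

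Acss2, which makes acetyl-CoA from acetate, lay lowest in Hmga2 KO. It had 8.41, 8.83 and 8.50 in wild type and 7.29, 8.17, 7.90 and 7.92 in Hmga2 KO, so that the groups did not overlap and Hmga2 KO replicate 1 was the lowest sample. The means were 8.58 ± 0.22 (SD, n = 3) and 7.82 ± 0.37 (SD, n = 4), which is 1.69-fold higher in wild type (difference -0.76, SE 0.20, 95% interval -1.21 to -0.31, adjusted p = 0.262, limma). In females alone the difference was -0.53. Of its other probe sets, 1 differed by -0.73 and the other, with a mean intensity of 192, by 0.12.

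Acaca, the carboxylase that commits acetyl-CoA to fatty acid synthesis, had 8.74, 8.70 and 8.79 in wild type and 8.44, 8.53, 8.34 and 8.38 in Hmga2 KO. The groups were tight and did not overlap (difference -0.32, SE 0.09, 95% interval -0.52 to -0.12, adjusted p = 0.274, limma). By exact permutation, two-sided, p was 0.0286, the lowest reachable, and in females alone the difference was -0.29. Its other probe set, close to background, differed by -0.05.

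The enzymes on either side of Acaca showed no separation. Acly, which supplies cytosolic acetyl-CoA from citrate, differed by 0.06 (95% interval -0.17 to 0.29), and its other 5 probe sets by -0.05 to 0.06. Fasn, fatty acid synthase, differed by -0.08 (95% interval -0.38 to 0.22), and Acacb, the carboxylase tied to the control of fatty acid oxidation, by -0.14 (95% interval -0.42 to 0.13). Among elongases, Elovl5 differed by 0.02 (95% interval -0.18 to 0.22, and -0.0031 on its other probe set), Elovl1 by -0.15 and Elovl6, which elongates palmitate, by 0.0022 with a wide interval of -0.54 to 0.54. The desaturases of polyunsaturated fatty acids, Fads1 and Fads2, differed by -0.15 and 0.26, and Acsl3, which activates fatty acids at lipid droplets, by -0.17. All of these groups overlapped.

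**Figure D2:**
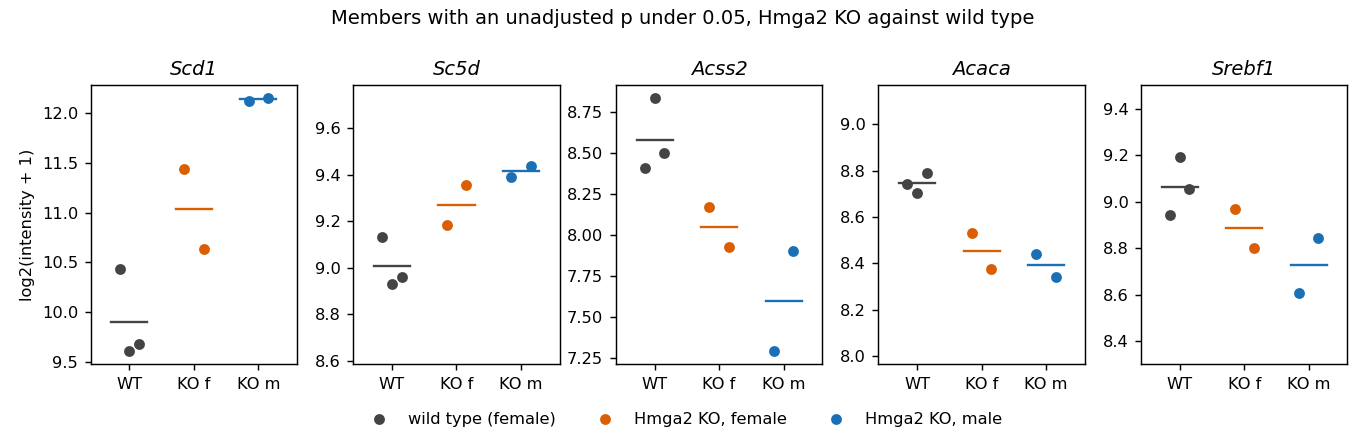
Values of the 5 genes with an unadjusted p under 0.05 between genotypes, as log2(intensity + 1) on y axes that differ between panels, with 1 point for each sample and a line for the mean of wild type (WT), female Hmga2 KO (KO f) and male Hmga2 KO (KO m). Scd1 and Sc5d lie above wild type in all Hmga2 KO samples, Acss2 and Acaca below, and Srebf1 overlaps.

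Other cell types were measured beside these genes. Summed over 10 markers of fibroblasts and fibro-adipogenic progenitors, the intensity was 13401 to 13470 in wild type and 15667 to 17179 in Hmga2 KO. Of these, 4 markers were higher and 0 lower at an unadjusted p under 0.05, against 2.99% and 10.3% of all genes. They differed by -0.71 to 1.67, with a median of 0.22. Their mean log2 difference from the wild type mean was 0.18, -0.08 and -0.10 in wild type and 0.55, 0.20, 0.34 and 0.23 in Hmga2 KO. Wild type replicate 1 thus lay near the female Hmga2 KO samples. Summed over 8 adipocyte markers the intensity was 2328 to 2534 and 2444 to 3187, with 2 higher (Cebpa and Cidec) and 0 lower, against the same shares. Their median difference was -0.02, and Adipoq and Lep had 46.0 to 60.2 in every sample, near the 33.9 to 58.2 of the Y-linked probe sets. The markers differed by -0.36 to 0.59, the highest being Cebpa, which is also expressed outside fat (adjusted p = 0.245, limma). Summed over 14 sarcomere genes of differentiating muscle it was 60518 to 87542 and 28611 to 69358, with 0 higher and 9 lower, against the same shares. Leukocyte markers summed to 784 to 909 and 798 to 893, and endothelial markers to 641 to 661 and 581 to 614. The 10 myoblast markers summed to 83691 to 89126 in wild type and 73184 to 89299 in Hmga2 KO, lowest in replicate 1. They differed by -0.60 to 0.64 (median -0.17), with 0 higher and 2 lower, against the same shares of all genes. None of these lists had a marker at 0, which the lowest value of 33.2 to 36.7 on every array fixed in advance. In such bulk samples fewer cells of a type and less RNA per cell cannot be told apart, and the part of these cells in the differences above was not tested.

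The clearest grouping within the list followed the sex of the Hmga2 KO samples rather than the genotype. Of 38 members, 8 (21.1%) were higher in male than in female Hmga2 KO samples at an unadjusted p under 0.05, against 2.65% of all genes, and 0 were lower, against 3.65%. None passed after adjustment over all genes (limma), where 7 genes (0.0385%) did. The 8 were the sterol enzymes Idi1, Fdps, Sqle, Cyp51 and Hsd17b7 and the fatty acid enzymes Scd1, Elovl6 and Fads2. Fewer members stayed under the unadjusted threshold when any 1 Hmga2 KO sample was left out, which leaves 1 sample of a sex. Over those fits Sqle differed by 0.70 to 0.81, Cyp51 by 0.54 to 0.70 and Fdps by 0.44 to 0.55. This comparison rests on 2 samples against 2, and any other difference between these samples cannot be told apart from sex.

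Sqle, the epoxidase that opens the path from squalene to sterols, had 10.57 and 10.46 in male Hmga2 KO and 9.79 and 9.72 in female Hmga2 KO, with 9.64, 9.68 and 9.98 in wild type. Both male samples stood above every other sample. The male minus female difference was 0.76 (SE 0.15, 95% interval 0.42 to 1.09), which is 1.69-fold (adjusted p = 0.302, limma). Cyp51, the demethylase that acts on lanosterol, had 11.28 and 11.12 in males and 10.58 in both females, with 10.68, 10.62 and 10.76 in wild type. Its difference was 0.62 (SE 0.12, 95% interval 0.33 to 0.90, adjusted p = 0.318), and 0.52 and 0.45 on the other 2 probe sets. The female Hmga2 KO samples lay within the wild type range for Sqle and just below it for Cyp51.

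Fdps, which makes farnesyl diphosphate, had 9.81 and 9.70 in males, 9.26 in both females and 9.51, 9.44 and 9.45 in wild type (male minus female 0.50, SE 0.12, 95% interval 0.23 to 0.76, adjusted p = 0.443, limma). Its other probe set, at background, differed by -0.18. Idi1, the isopentenyl diphosphate isomerase, had 10.92 and 10.68 in males, 10.26 and 10.41 in females and 10.38, 10.39 and 10.57 in wild type. Hsd17b7, which reduces a keto sterol on the way to cholesterol, had 10.44 and 10.34 in males, 9.99 and 10.08 in females and 10.22, 10.05 and 9.88 in wild type. Idi1 differed by 0.47 and 0.46 on its 2 probe sets, and Hsd17b7 by 0.31 to 0.59 over its 4. For these genes, too, the female Hmga2 KO samples stayed within or below the wild type range.

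In the fatty acid branch, Scd1 differed between male and female Hmga2 KO by 1.10 (95% interval 0.37 to 1.84, adjusted p = 0.556, limma) and was the only 1 of the 8 whose female Hmga2 KO samples also lay above all wild type samples. Elovl6 had 9.77 and 9.79 in males, 9.07 and 9.09 in females and 9.57, 8.99 and 9.72 in wild type, a male minus female difference of 0.70, and 0.77 on its second brightest probe set. Fads2, the first desaturase of polyunsaturated fatty acid synthesis, had 11.43 and 11.15 in males, 10.51 and 10.75 in females and 10.93, 10.37 and 10.81 in wild type, a difference of 0.66. For Elovl6 the SD was 0.38 in wild type and 0.40 in Hmga2 KO, and wild type replicate 2 was the lowest of its group for Elovl6 and Fads2.

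**Figure D3:**
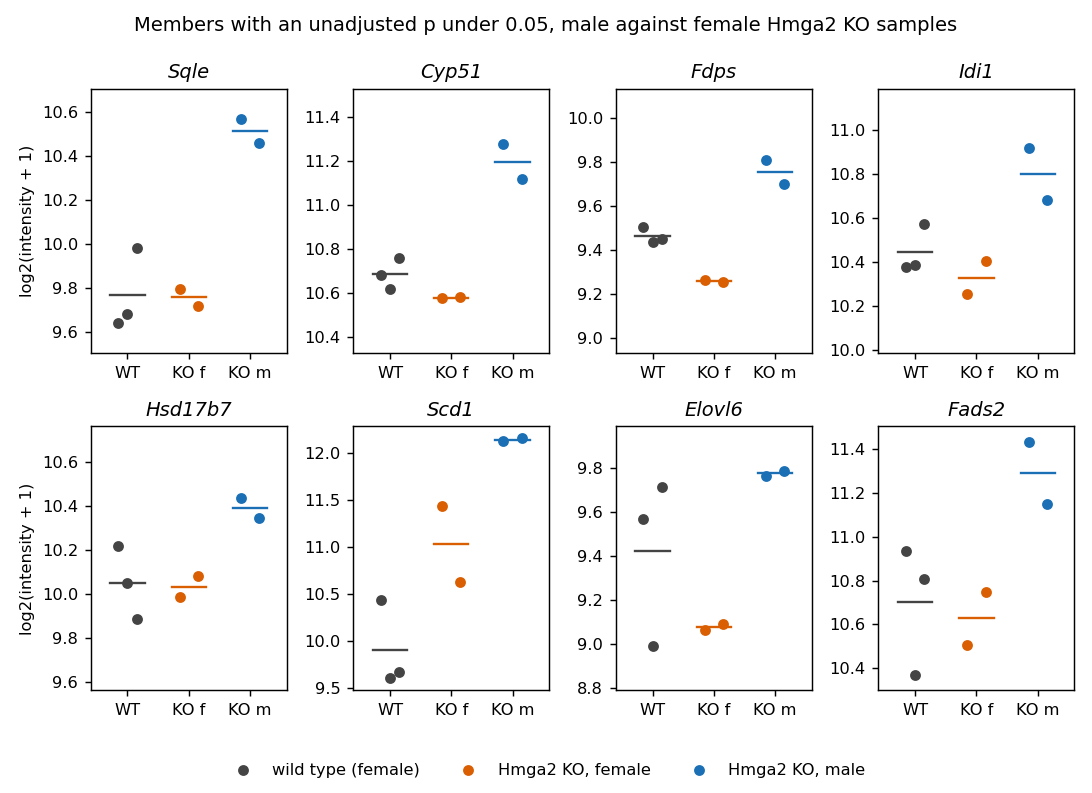
Values of the 8 genes with an unadjusted p under 0.05 between male and female Hmga2 KO samples, as log2(intensity + 1) on y axes that differ between panels, with 1 point for each sample and a line for each mean. In every panel both male Hmga2 KO samples (KO m) lie above the 3 wild type (WT) and 2 female Hmga2 KO (KO f) samples.

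No other member had an unadjusted p under 0.05 in this comparison. Among sterol enzymes, Hmgcs1 differed between male and female Hmga2 KO by 0.16 (95% interval -0.14 to 0.46), Nsdhl by 0.02 and Ebp by -0.01, and Fdft1 lay the other way at -0.34 (95% interval -0.73 to 0.05). The regulators differed by 0.22 for Srebf2, 0.13 for Insig1, -0.15 for Insig2 and -0.16 for Srebf1, and Fasn differed by 0.11 and Acaca by -0.06. In a count made after the values were seen, both male Hmga2 KO samples lay above all 5 female samples for 10 members (26.3%, against 3.99% of all genes), the 8 above with Sc5d and Srebf2. They lay below all 5 for Pmvk, Abcg1, Acacb and Acss2 (10.5%, against 12.1%).

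**Figure D4:**
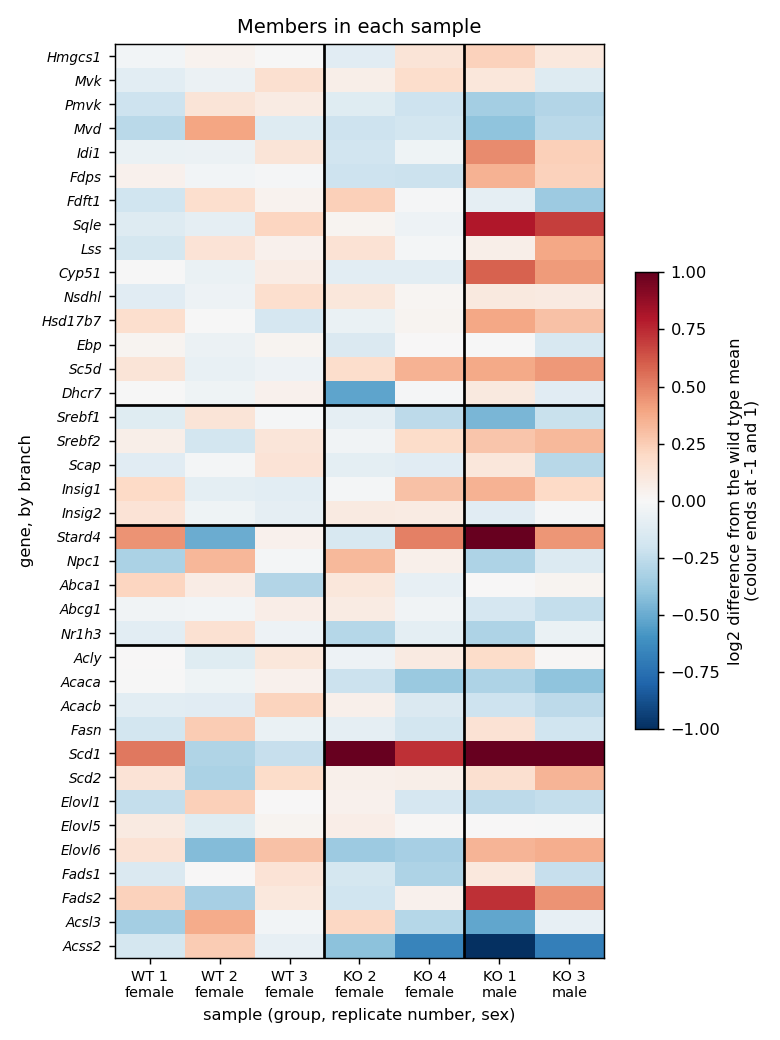
Difference of each sample from the wild type mean for the 38 measured genes, with samples as columns (WT, wild type; KO, Hmga2 KO), genes as rows and black lines between the branches, from top to bottom sterol enzymes, SREBP regulators, sterol transport and LXR, and fatty acid enzymes. Red cells gather in the male columns for Sqle, Cyp51, Idi1, Fdps, Fads2 and Elovl6, whereas Scd1 is red in all 4 Hmga2 KO columns and Acss2 blue.

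Averaged over the 15 sterol enzymes, the log2 difference from the wild type mean was 0.18 and 0.10 in the male Hmga2 KO samples (replicates 1 and 3) and -0.06 and -0.01 in the females (replicates 2 and 4), against -0.06 to 0.04 among wild type samples. Over the 13 fatty acid enzymes it was 0.10 and 0.10 in males and 0.04 and -0.12 in females, against -0.05 to 0.06. The 14 sarcomere genes ran the other way, with -1.41 and -0.75 in males and -0.20 and -0.57 in females, against -0.29 to 0.26, and 11 of the 14 were lower in males at an unadjusted p under 0.05, against 3.65% of all genes. Of the 8 adipocyte markers, 2 (Cebpa and Cidec) were higher in males at that threshold, against 2.65% of all genes, and 0 were lower. The part of these changes in the male values of the lipid genes was not tested.

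Genes next to the listed ones were counted in 5 further lists, to be read against the 2.99% of all genes that were higher and the 10.3% that were lower at an unadjusted p under 0.05. No gene in them passed the adjusted threshold, and the medians of the genotype difference lay between -0.10 and -0.05, around the -0.07 of all genes. Of 15 genes that use isoprenoids or feed electrons to sterol synthesis, 0 were higher and 2 lower at an unadjusted p under 0.05, namely Cyb5r3, a reductase that feeds cytochrome b5 (difference -0.30, adjusted p = 0.310, limma), and Rabggta, a subunit of the enzyme that prenylates Rab proteins (difference -0.42). Next in that list was Rce1, a protease of prenylated proteins, at -0.24. Of 17 genes that process or degrade SREBP pathway proteins, 0 were higher and 1 lower, Tmem97, a sterol-regulated membrane protein (difference -0.35, adjusted p = 0.345). The ubiquitin ligase gene Rnf145 and the SREBP protease gene Mbtps1 followed at -0.19 and -0.18.

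Of 22 genes of sterol movement and esterification, 2 were higher and 3 lower. Lrp1, an endocytic receptor of lipoproteins, averaged 10.44 in wild type against 11.16 in Hmga2 KO (difference 0.72, adjusted p = 0.249, limma). Cav1, the coat protein of caveolae, had 12.02 and 10.87 (difference -1.14, adjusted p = 0.293) and Lcat, which esterifies cholesterol in lipoproteins, 7.59 and 7.95. In females alone the differences were 0.61 for Lrp1 and -1.38 for Cav1. The Cav1 groups overlapped, as wild type replicate 2 (11.11), the sample apart in the Actb control, lay below Hmga2 KO replicate 1 (11.46). Wild type replicates 1 and 3 had 12.24 and 12.69. Of 25 genes of fatty acid supply and chain remodelling, 0 were higher and 5 lower, among them Mlx, the partner of carbohydrate-sensing factors (-0.24), Fads3 (-0.47) and the mitochondrial synthase Oxsm (-0.25). Of 24 genes of glycerolipid assembly, 2 were higher and 3 lower. Lpin1 and Lpin2, phosphatases that make diacylglycerol, differed by 0.40 (adjusted p = 0.298) and 0.26, and Cds2, which makes CDP-diacylglycerol, by -0.27. Between male and female Hmga2 KO samples, 0 genes of these 5 lists were higher at an unadjusted p under 0.05, against 2.65% of all genes. In the glycerolipid list 1 was lower, and none in the others, against 3.65% of all genes. With lists of this size such low counts lie near those shares.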

How the data were processed

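Biotinylated cRNA was made from total RNA, per the labels' protocols. The authors deposited probe set intensities on a linear scale for 45101 probe sets in 7 samples, with a median of 150 on every array and a lowest value of 33.2 to 36.7, which acts as a floor. The sources used here do not give software, background correction or summarization. The number of arrays limits the precision.

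Intensities were analysed as log2(intensity + 1), with no further normalization. Probe sets paired with 1 gene (34945) were named through the platform table, with symbols checked by gene identifier against RefSeq (34741 matched, 0 changed), and the probe set with the highest mean represented each of 18193 genes. No low values were filtered out, so all 38 measured members were tested.

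Groups came from the titles. Hmga2 KO was set against wild type by limma 3.58.1 in R 4.3.3 (lmFit, eBayes) with Benjamini-Hochberg adjustment, and male and female Hmga2 KO in a fit of 3 groups over all 7 samples. Single genes were also tested by exact permutation over 35 splits. The scripts were tested on simulated data. Motifs were searched with Python 3.11.15.

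The members and lists were chosen with earlier results of these data known. Per-sample values are given for members with an unadjusted p under 0.05 or separate groups, for the 3 smallest p-values of each branch and for the 3 smallest between male and female Hmga2 KO (Sqle, Cyp51 and Fdps). All probe sets are given where bright ones disagree in sign. Per-sample values of Hmgcs1, Dhcr7, Scd2, Idi1, Hsd17b7, Elovl6 and Fads2 were added after their values were seen. From the 5 other pathway lists, the 3 smallest p-values are named where none passed. The cell type markers were fixed with these lists. The alternatives were the replicate number as a block, sex in the model, females alone, leaving out each sample, quantile normalization, a filter on the 40% of genes with the dimmest signal, the most variable probe set or the mean of a gene's probe sets, a pseudocount of 16, a trended and robust prior, array weights and an adjusted p of 0.1.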

Additional observations from a re-analysis of the deposited data

Results flagged for a closer look

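For 6 genes the male and the female Hmga2 KO samples lay on opposite sides of the wild type mean, and the difference between them did not pass adjustment over all genes in limma. Males lay above and females below for Idi1 (male minus female 0.47, adjusted p = 0.577), Fdps (0.50, adjusted p = 0.443), Cyp51 (0.62, adjusted p = 0.318) and Elovl6 (0.70, adjusted p = 0.588). Males lay below and females above for Npc1, with a difference of -0.41 (adjusted p = 0.859), and for Insig2, with -0.15 (adjusted p = 0.944). The wild type means were 10.45 for Idi1, 9.47 for Fdps, 10.69 for Cyp51, 9.43 for Elovl6, 9.33 for Npc1 and 10.73 for Insig2. No member had a Hmga2 KO sample far enough from the other 3 to pass Dixon's test, in 38 genes examined.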

How the results depend on the processing

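Between genotypes, 5 genes and 0 members passed in the reported fit. With the replicate block 99 genes passed and 1 member, Scd1 (change 2.00, adjusted p = 0.00889, limma). Hmga2 KO replicate 4 has no wild type sample of its number, so it adds nothing to that change. Leaving this sample out without the block also gave an Scd1 change of 2.00. Same-numbered samples deviated with correlations of 0.31, 0.37 and -0.18, which do not settle whether the numbers are a pairing, and the reported fit did not use them. Over the other settings the adjusted p of Scd1 stayed between 0.144 and 0.622. At an adjusted p of 0.1, 9 genes passed. Leaving out 1 sample at a time gave 2 to 17 genes (17 without Hmga2 KO replicate 2, 2 without wild type replicate 3). Members higher at an unadjusted p under 0.05 numbered 5 with the block (3.50% of all genes), 1 with sex in the model (2.26%) and 1 in females alone (2.21%). They numbered 1 with the mean of probe sets (2.75%) and 2 to 4 with a sample left out (2.23% to 3.55%). Members lower numbered 2 to 5, where 4.64% to 13.8% of all genes were lower. The sterol enzyme median of 0.08 was -0.018 with sex in the model and in females alone, which estimate the same contrast, 0.14 after quantile normalization and 0.036 to 0.12 with a sample left out. The regulator median of 0.01 was 0.074 in those fits, 0.093 after quantile normalization, 0.16 with the most variable probe set and -0.023 to 0.081 with a sample left out. The transport median of -0.02 was 0.022 in those fits, 0.029 after quantile normalization, 0.22 without the dimmest 40% of genes, -0.070 with the mean of probe sets, -0.13 with the most variable, 0.027 with array weights and -0.13 to 0.053 with a sample left out. The fatty acid median ranged from -0.17 to -0.030 with a sample left out and was -0.00047 after quantile normalization, from -0.08. Abcg1 reversed to 0.022 with sex in the model and in females alone. Between male and female Hmga2 KO, 7 genes passed, 3 without the dimmest 40% of genes and 11 at an adjusted p of 0.1. With all 4 Hmga2 KO samples kept, 8 members were higher in males in every fit, except for 7 with the mean of probe sets, where Fdps dropped to 0.16. In these fits 0 or 1 was lower. Fewer of the 8 stayed under the unadjusted threshold when any 1 Hmga2 KO sample was left out, and Scd1 and Hsd17b7 did not stay without replicate 4. A lone sample of a sex is there assumed to vary like the other groups. The causes were not tested.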
